A study of Mus musculus with 2 samples.

Results

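The imprinted Peg3 domain of mouse chromosome 7 was described here through its genes Zim1, Peg3 and Usp29, in lists of H3K9me3 peaks from embryonic stem cells. The 3 genes were taken by name from 49943 RefSeq genes on chromosomes 1 to 19, X and Y, of which 21887 are protein-coding, and peaks were collected over their bodies and 50 kb on either side. In the mouse build mm10 that span runs from 6624444 to 7017220 and is 392.8 kb long. It held 34 of the 161565 peaks of replicate 1 and 51 of the 198948 of replicate 2. The list of peaks that the authors called replicated placed 23 of its 123489 there.

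H3K9me3 is the trimethylated form of lysine 9 on histone H3, a mark of silent chromatin. ChIP-seq for it was run on E14TG2a.4, a male embryonic stem cell line of strain 129/Ola. The 2 samples are biological replicates of 1 group, each with its own biosample, and the labels name no treatment and no second genotype. Peaks were deposited without read counts, so depth is unknown and no counting interval can be given. Fold enrichment, the strength of a peak, is the authors' own linear ratio, and the sources used here do not name its reference. Spread between the replicates is spread within 1 cell line. Of 7 stem cell genes chosen as markers, 6 were found in the mm9 annotation and 0 of them had a region at the promoter in both replicates, against 2 of 7 fibroblast genes and 5.54% of all protein-coding genes. A peak list does not measure expression, so these counts do not test the label.

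Genomic imprinting restricts expression to the copy of a gene from one parent. Peg3, which encodes a large zinc finger protein, and Usp29, which encodes a ubiquitin-specific protease, are read in opposite directions from one shared start region and are expressed from the paternal copy. Zim1, a zinc finger gene on the far side of Peg3, is expressed mainly from the maternal copy. The shared start region and the first intron of Peg3 are known as the imprinting control region of the domain, with DNA methylation on the maternal copy. That region is known for a row of binding sites of the factor YY1, whose letters are GCCATNTT. At imprinted regions the zinc finger protein ZFP57 is known to bind methylated TGCCGC and to bring in KAP1 and the H3K9 methyltransferase SETDB1. The lists hold no information on which parental copy carried a peak.

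RefSeq places only 96 bases between the Peg3 and the Usp29 body, at chr7:6730463-6730558 of GRCm38.p6. These bases are shown because the block of H3K9me3 described next spans them, with CpG in capitals, on the strand of Usp29.
between Peg3 and Usp29: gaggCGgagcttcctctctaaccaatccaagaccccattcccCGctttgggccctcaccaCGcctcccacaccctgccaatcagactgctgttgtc
They hold 3 CpG and 2 copies of the letters CCAAT on either strand, letters that 37.4% of 32851 RefSeq promoters of 300 bases hold. The RefSeq promoter table puts the Peg3 start at 6730419 and the Usp29 start at 6730583, 164 bases apart.

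The first intron of Peg3, at 6679286 to 6682968 of mm9 and 3.68 kb long, held 12 copies of GCCATNTT, all on the Peg3 strand. They lie over 2.30 kb, from 823 to 3118 bases into the gene, with 30 to 603 bases from one copy to the next. Of the 12, 11 have C at the free base and 1 has T, and 7 follow the letters GGC. Selected copies are shown with 11 bases of intron on either side, 5′ to 3′ on the Peg3 strand, with the motif in capitals. These are the copy nearest the start, the third, the copy with T, and the 2 farthest ones, which share all 11 bases after the motif. The 3 copies that follow the letters GAC are not among them, so the full variation of the row is not shown.
site 1, chr7:6682289-6682318: acccagttggcGCCATCTTggagggtggag
site 3, chr7:6681580-6681609: cccatcctggcGCCATCTTtcctggccaag
site 7, chr7:6680963-6680992: tcactgaaggtGCCATTTTgattgacagct
site 11, chr7:6680123-6680152: ctccctctggcGCCATCTTtgttggccaca
site 12, chr7:6680001-6680030: ccttcattggcGCCATCTTtgttggccaca
Of 61733 windows of 2.30 kb on mm9 chromosome 7, 41.7% held any copy on either strand and 1 held at least 12. That length is the extent of the row itself, so the window was fitted to these copies and the count does not measure rarity.

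The same intron held 8 copies of TGCCGC, counting both strands, all within 2.5 kb of the start. A stretch of 300 bases that starts 226 bases into Peg3, chr7:6682605-6682904 of mm9, holds 3 of them. It is shown on the Peg3 strand with TGCCGC, or its reverse complement, in capitals.
first intron of Peg3: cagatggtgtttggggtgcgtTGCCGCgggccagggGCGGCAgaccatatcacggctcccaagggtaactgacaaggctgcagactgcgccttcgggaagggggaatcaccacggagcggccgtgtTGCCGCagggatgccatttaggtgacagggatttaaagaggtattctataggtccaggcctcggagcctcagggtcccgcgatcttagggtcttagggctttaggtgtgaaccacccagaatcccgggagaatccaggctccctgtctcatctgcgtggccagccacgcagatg
These sequences are from the reference genome, which is of another mouse strain than the 129/Ola cells. A match of letters describes the sequence and says nothing of what was bound.

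One block of H3K9me3 covered the starts of both Peg3 and Usp29. In the replicated mm10 list it was a single peak from 6723456 to 6732965, 9.51 kb wide, with a fold enrichment of 12.8. It reached 6.96 kb from the Peg3 start into Peg3 and 2.38 kb from the Usp29 start into Usp29. In replicate 1 the peak over the Peg3 start had a fold enrichment of 9.10 and a −log10 q of 21.9, and in replicate 2 it had 14.1 and 45.6. In both replicates the same peak also held the Usp29 start.

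The replicates drew the block differently. Replicate 1 had 11 peaks over it, separated by gaps of 46 to 456 bases, that together covered 81.9% of its bases. Replicate 2 had 6 peaks, with gaps of 56 to 201 bases, that covered 91.5%. The widest piece measured 2297 bases in replicate 1 and 6481 bases in replicate 2. The replicate 1 pieces ranged from a fold enrichment of 3.12 to 9.10, with the highest value in the piece over the start and 7.80 in the piece next to it on the Peg3 side. The next piece on the Usp29 side had 3.52. The summit of the whole peak lay 1625 bases into Peg3, and that of replicate 2 lay 1495 bases into it. Replicate 1 had its highest summit 153 bases from the Peg3 start on the Usp29 side, and its second strongest piece had a summit 1.63 kb into Peg3. By distance from the start, the strongest summit of replicate 2 falls along the row of GCCATNTT copies and that of replicate 1 does not. The whole peak was called with reads of both replicates, so its summit is not a separate measurement.

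**Figure D1:**
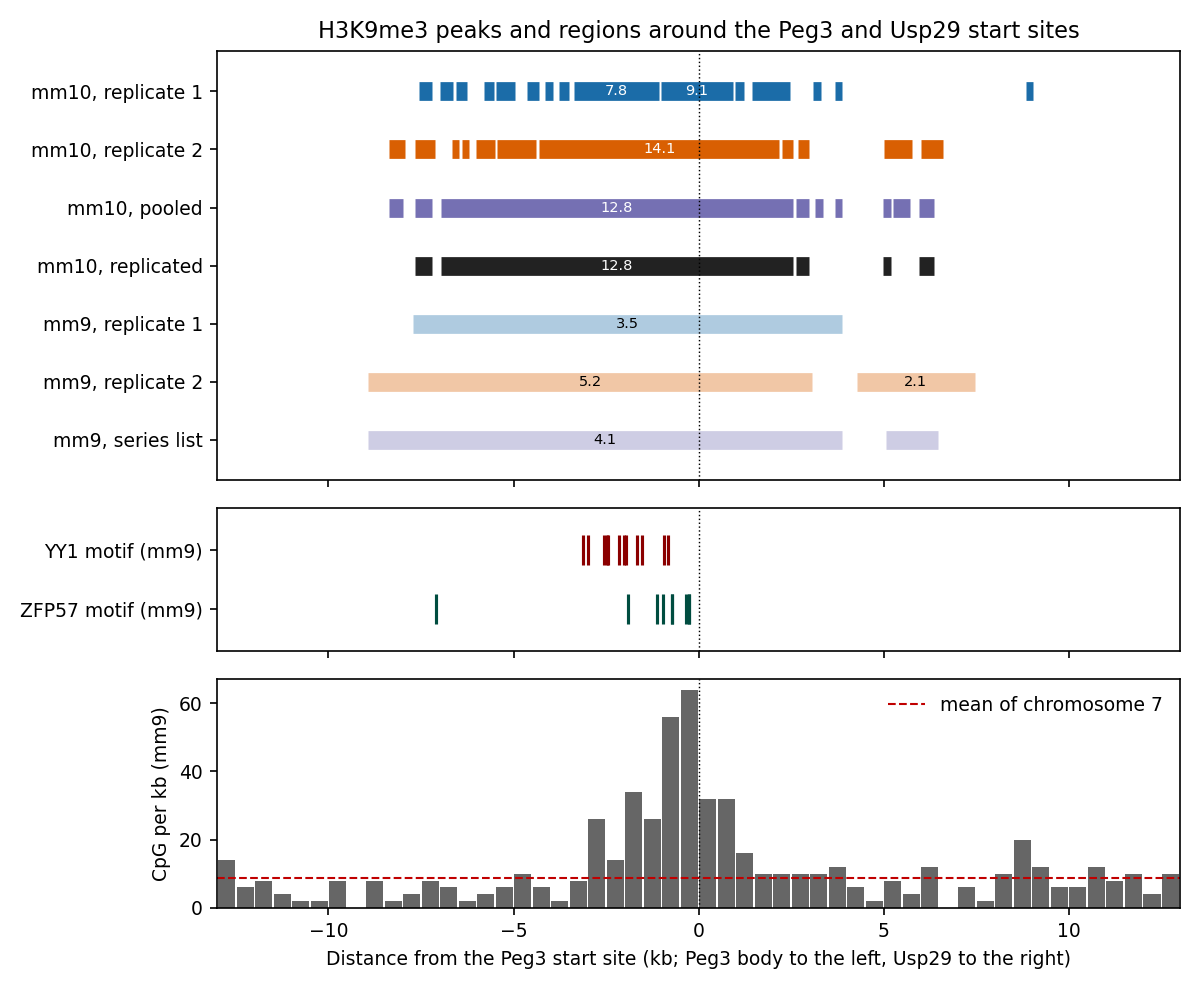
Peaks and regions of all 7 lists (top, fold enrichment written on the wide ones), copies of the YY1 and ZFP57 motifs on either strand inside the region of both mm9 replicates (middle) and CpG per kb in bins of 0.5 kb (bottom), against distance from the Peg3 start in kb, with Peg3 to the left and Usp29 to the right. The replicated mm10 peak of 12.8 spans both starts, replicate 1 is broken into pieces, and CpG density reaches 64 per kb in the first bin of Peg3.

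In width the block stood near the top of the whole replicated list, and in strength less so. It was number 37 by width among 123489 replicated peaks, wider than 99.97% of them, and number 3286 by fold enrichment, above 97.3% of them. Neither replicate alone called a peak of that width there, the widest pieces being 2297 bases in replicate 1 and 6481 bases in replicate 2. The median replicated peak was 528 bases wide with a fold enrichment of 4.20. The block alone held 41.4% of all bases that replicated peaks covered in the flanked span. It accounted for 86.5% of the covered bases of Peg3 and 51.0% of those of Usp29.

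The wider mm9 regions also covered the Peg3 start, with lower fold enrichments than the narrow mm10 peaks. Replicate 1 had a region from 6675401 to 6687000 with a fold enrichment of 3.46, and replicate 2 one from 6674201 to 6686200 with 5.18. Their mean was 4.32 ± 1.22 (SD, n = 2), and the series-wide mm9 list gave 4.08 for a region of 12.8 kb. All 3 Peg3 transcript starts of GENCODE M1 lie inside the 10.8 kb that both replicates covered. A region of both replicates lay at the promoter, within 1 kb of a start, of 1239 of 22367 protein-coding genes, or 5.54%. Of the 3 domain genes 1, Peg3, had one. Among the 1239, Peg3 was number 469 by mean fold enrichment, above 62.1% of them, and their median was 3.80. At a fold enrichment of at least 4 in each replicate no promoter of the domain passed, because replicate 1 had 3.46.

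Usp29 depended on where its start is drawn. GENCODE M1 annotates it on mm9 as a single exon of 2.61 kb, from 6913871 to 6916480, 230.6 kb from the start in RefSeq. The nearest region of both replicates lay 13.1 kb from that exon, so the promoter counted as unmarked. RefSeq's promoter sequence of Usp29 matched mm9 chromosome 7 exactly once, at a start of 6683294, inside the region over Peg3. With RefSeq starts, an alternative added after the data were seen, 2 of the 3 promoters were marked in mm9, both by 1 region. On mm10, where RefSeq starts were used directly, a replicated peak lay within 1 kb of 1031 of 17492 protein-coding promoters, or 5.89%. Peg3 and Usp29 were called by their shared peak, and Zim1 was not called.

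Around the shared start the sequence was rich in CpG, the dinucleotide that DNA methylation acts on. The 2 kb centred on the Peg3 start held 92 CpG, or 46 per kb, more than 99.4% of all 2 kb windows of mm9 chromosome 7. The first intron had 27.4 per kb and the whole 10.8 kb region 17.8 per kb, against 8.64 per kb on the chromosome. The 300-base RefSeq promoters held 13 CpG for Peg3, 17 for Usp29 and 20 for Zim1, against a median of 7 over 32851 promoters. Neither the Peg3 nor the Usp29 promoter of 300 bases held TGCCGC or GCCATNTT, and that of Zim1 held TGCCGC. Of all promoters 11.6% held TGCCGC and 6.05% held GCCATNTT, on either strand. Over the 10.8 kb region, 9 copies of TGCCGC and 12 of GCCATNTT were found. Of 13093 windows of that length on the chromosome, 6 held at least 9 copies of TGCCGC and 5 held at least 12 of GCCATNTT. Any copy of TGCCGC was held by 44.2% of them. These windows were not matched for CpG, and TGCCGC itself holds a CpG, so its count cannot be told apart from CpG richness. The 12 copies of GCCATNTT are the row in the first intron, so their count does not measure rarity either. The 2 kb centred on the Zim1 start had 23 CpG per kb and no region of both replicates.

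As a share of the gene body, Peg3 was covered most, Zim1 less and Usp29 least. Peg3, from 6703892 to 6730462 in mm10, was covered over 24.1% of its 26.6 kb in replicate 1, 30.2% in replicate 2 and 30.5% in the replicated list. Zim1, from 6674444 to 6696540, was covered over 4.78%, 6.49% and 5.61% of its 22.1 kb in the same lists. Usp29, from 6730559 to 6967220, was covered over 1.64%, 2.35% and 1.99% of its 236.7 kb. The ranges of the replicates do not overlap between any of the 3 genes, but 2 values per gene do not measure a difference between genes. The shares also depend on body length. In bases, replicated peaks covered 8096 of Peg3, 4718 of Usp29 and 1240 of Zim1.

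All 3 bodies held a replicated peak, as did 6732 of 21887 protein-coding bodies, or 30.8%. Long bodies hold one more often: among 1697 bodies from 0.5 to 2 times the length of Usp29, 87.9% had a peak, with a median of 1.63% covered. Usp29 was covered more than 55.6% of those. Peg3 was covered more than 98.9% of 7776 bodies of like length, where the median was 0. Zim1 was covered more than 88.7% of 7928 bodies of like length.

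**Figure D2:**
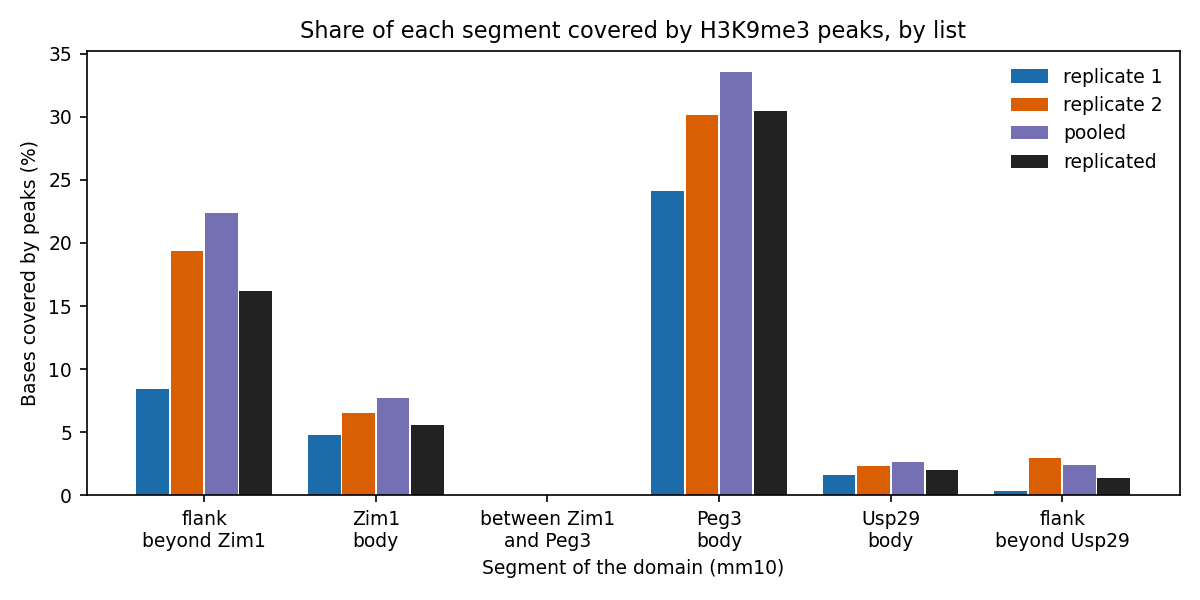
Share of bases covered by peaks (%) in 6 segments of the domain for the 4 mm10 lists, 1 bar per list, with no error bar since each bar is 1 list. The Peg3 body has the highest share in every list (24.1% to 33.5%), the flank beyond Zim1 follows, and the 7.35 kb between Zim1 and Peg3 have none.

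Within Peg3 the mark lay at the start side. Replicated peaks covered 74.7% of the first 10 kb of the body, with 60.3% in replicate 1 and 72.6% in replicate 2. Beyond the block, 3 more replicated peaks overlapped the body. A peak of 463 bases next to the block had a fold enrichment of 4.93, with 3.52 in replicate 1 and 5.96 in replicate 2. The other two lay 20.9 and 21.4 kb into the gene, with 2.82 and 3.00. The large last coding exon, which encodes most of the protein, lies 18.7 to 22.9 kb into the gene in mm9, so both peaks fall at its distance. In mm9 no region of either replicate covered any of the 4767 coding bases of Peg3, so the calls there rest on narrow mm10 peaks. Of the 2 weak peaks, the one at 21.4 kb was overlapped by replicate 2 and by no replicate 1 peak.

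In the mm10 lists Usp29 was marked at its start and little beyond. Replicated peaks covered 33.8% of its first 10 kb and 0.589% of the other 226.7 kb. Including the block it held 7 replicated peaks. Next to the block lay 3 of them, 2.79, 5.14 and 6.12 kb from the Peg3 start, with fold enrichments of 3.45, 3.27 and 2.91. Each of the 3 was overlapped by replicate 2, with 3.66 to 5.03, and by no replicate 1 peak. Farther in lay 3 weak peaks at 23.4, 28.1 and 62.3 kb, with 2.52, 2.69 and 3.90, which both replicates overlapped. Replicate 1 gave them 2.86, 2.60 and 3.12, and replicate 2 gave 2.31, 2.39 and 4.11. By distance from the Peg3 start, no mm9 region of either replicate lay at these 3 weak peaks. One mm9 region of both replicates did fall inside the RefSeq body by distance, 215.1 to 217.7 kb from the Peg3 start. It had 1.80 in replicate 1 and 2.45 in replicate 2, and no mm10 list had a peak at that distance. In the GENCODE M1 coding exon of Usp29 no base was covered in either mm9 replicate.

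Zim1 was marked at its far end and not at its start. Its only replicated mm10 peak, from 6676972 to 6678211, was 1240 bases wide with a fold enrichment of 5.85. Replicate 1 overlapped it with 2 peaks of up to 3.95, and replicate 2 with 1 peak of 7.78. In mm9 both replicates had a region at the same place, with 2.00 in replicate 1 and 3.48 in replicate 2, a mean of 2.74 ± 1.05 (SD, n = 2). That region covered the last coding exon, from 6629637 to 6630973, over all of its 1337 coding bases in replicate 1 and 87.7% of them in replicate 2. Last exons of zinc finger genes usually encode the finger repeats. The nearest region of both replicates lay 17.6 kb from the main Zim1 start and 9.92 kb from a second, internal one. Between the Zim1 and Peg3 bodies, 7.35 kb held no peak in any mm10 list.

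**Figure D3:**
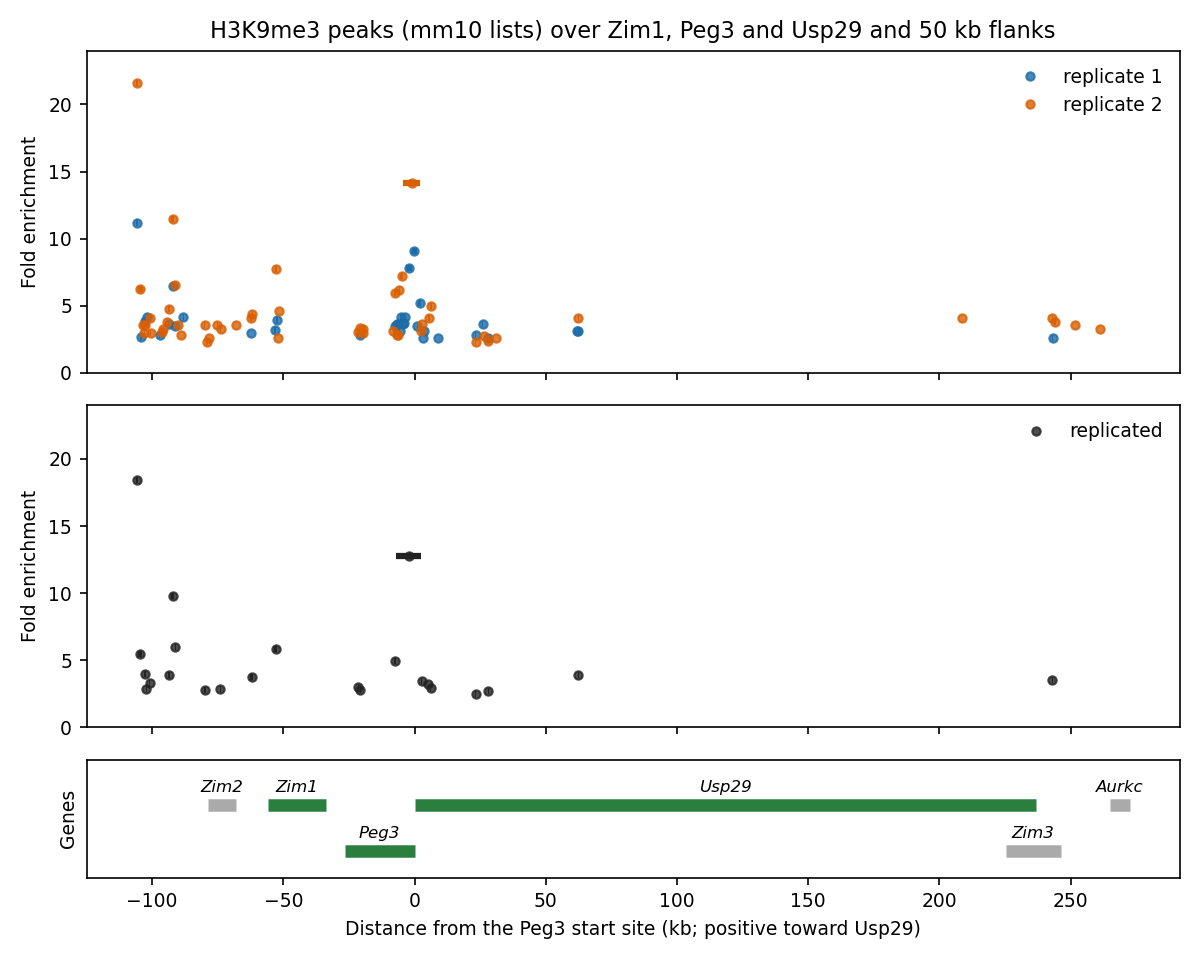
Fold enrichment of each mm10 peak in replicates 1 and 2 (top) and in the replicated list (middle), with gene bodies (bottom, members in green), against distance from the Peg3 start in kb, positive toward Usp29. Points mark peak centres and bars their widths. Peaks gather beyond Zim1 and at the Peg3 start, where the replicated list has 12.8, and between those at 62.3 and 243.2 kb toward Usp29 the replicated list has none.

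The flank beyond Zim1 held the strongest peak of the span. A replicated peak of 523 bases, from 6624427 to 6624949, had a fold enrichment of 18.4, with 11.2 in replicate 1 and 21.6 in replicate 2. It lies across the edge of the 50 kb flank and in no annotated gene, 105.8 kb from the Peg3 start. Just outside that edge, 273 bases away, a peak had 3.75. On the Usp29 side the nearest peak outside lay 16.3 kb beyond the edge, with 3.94. Wholly inside the span, the block over Peg3 was the strongest. The flank beyond Zim1 had 11 replicated peaks over 16.2% of its bases, with a peak of 9.75 at 92.2 kb from the Peg3 start, where the replicates had 6.50 and 11.5. The flank beyond Usp29 had 1 peak over 1.39%.

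Of 7 annotated genes in the span besides Zim1, Peg3 and Usp29, 2 had a replicated peak, as did 24.5% of all 49943 RefSeq gene bodies. The noncoding gene Zim2 had 1 of 2.85, overlapped by replicate 2 only, over 4.95% of its body. The noncoding gene Zim3 had 1 of 3.57, where the replicates had 2.64 and 4.11, over 3.32% of its body. Both shares are above that of Usp29, 1.99%, and below that of Zim1, 5.61%. Peg3os, an antisense RNA within Peg3, the microRNA gene Mir3099, the pseudogenes Gm51257 and LOC115485607, and Aurkc, which encodes a kinase of meiosis, had none. Zfp264 and Ast1 were not found in the RefSeq table.

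Over the whole span the peaks were mostly weak. The 23 replicated peaks had a median fold enrichment of 3.57, from 2.52 to 18.4, and 8 had at least 4, while 56.4% of all replicated peaks did. Both replicates overlapped 15 of the 23, replicate 2 alone 7, and neither of them 1. Replicate 2 had the higher value at 12 of the 15, and over all such peaks of the genome at 80.2%. Covered bases had a Jaccard index, shared over combined bases, of 0.431 between the replicates in the span. It was 0.633 in the Peg3 body, 0.483 in Zim1 and 0.404 in Usp29, against 0.479 over all chromosomes. Replicated peaks covered 5.84% of the span, against 4.01% of chromosome 7. Replicate 1 peaks covered 4.04% against 3.02%, and replicate 2 peaks 6.69% against 4.34%. The count of 23 depended on the list and the flank, with 48 peaks in the pooled list, 51 in replicate 2 and 57 at 100 kb.

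The 2 builds differed both within the 3 genes and beyond them. All 12 RefSeq promoters in and around the span that matched mm9 lie at the same distance from the Peg3 start in both builds, so places could be compared by distance. Of 5 mm9 regions of both replicates in the span, 3 had a replicated mm10 peak at their distance, those at the Peg3 start, in Zim1 and 90.1 to 95.1 kb beyond Peg3 on the Zim1 side. At 2 of them no peak of any mm10 list lay at that distance. One, from 6898201 to 6900800, had 1.80 in replicate 1 and 2.45 in replicate 2. It lies 215.1 to 217.7 kb from the Peg3 start on the Usp29 side, by distance inside the RefSeq body of Usp29. The other, from 6960801 to 6967800, had 4.85 and 7.49, the highest mm9 values of the span, 277.7 to 284.7 kb from the Peg3 start on the Usp29 side. In these 2 regions 81.9% and 36.5% of bases began a 16-base word found at least 10 times on the chromosome. The share was 0.584% over Peg3, 0.840% in Zim1 and 11.98% in the region beyond, with a median of 8.82% over 696 windows of 10 kb. The part of repeated sequence in this difference was not tested. In the other direction, 13 of the 23 replicated mm10 peaks had no mm9 region of either replicate at their distance. Among them were the peak of 18.4 and weak peaks in Peg3 and Usp29.

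Set beside other imprinted genes, Peg3 had a middling strength, and its place by width depended on the lists. Of 28 imprinted genes, chosen with earlier results known, 19 had a promoter region in both mm9 replicates, as did 5.54% of all protein-coding genes. Peg3 was number 13 of the 19 by mean. That rank counts genes and not separate regions, since Gnas and Nespas had the same values, as did Peg10 and Sgce. Mest, expressed from the paternal copy, had 5.51 in replicate 1 and 7.94 in replicate 2, a mean of 6.72 ± 1.71 (SD, n = 2). Snrpn, which encodes a splicing protein, had 6.54 and 3.92, with a mean of 5.23 ± 1.85. Peg10, a gene derived from a retrotransposon, shares its start region with Sgce, as Peg3 does with Usp29. Both had 3.13 and 6.64, with a mean of 4.88 ± 2.48. The ranges of Peg3, 3.46 to 5.18, overlap those of Snrpn and of Peg10 with Sgce, and lie below that of Mest. With 2 values per gene that differ by gene and not by condition, no test was made. Replicate 2 was higher at 18 of the 19 genes, and Snrpn was the exception. There the mm9 regions were unlike, 2.6 kb wide in replicate 1 and 12.8 kb in replicate 2. At the strongest mm10 peak of Snrpn, replicate 1 had 5.98 and replicate 2 had 12.85.

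Regions at these promoters were 11.6 and 12 kb wide at Peg3, 13 and 12.2 kb at Mest, 6.2 and 4.6 kb at Peg10, and 2.6 and 12.8 kb at Snrpn, in replicates 1 and 2. By the mean of both replicates 8 of the 19 genes had a wider mm9 region than the 11.8 kb of Peg3, up to 22.5 kb at Meg3, a noncoding RNA gene. In mm10, 27 of the imprinted genes were found in RefSeq and 24 had a replicated peak within 1 kb of the body, against 33.3% of all protein-coding genes. These imprinted genes were chosen with earlier results of these data known and include Peg3, Usp29 and Zim1. The 2 shares therefore do not measure an enrichment. Peg3 was number 11 by its strongest peak and number 8 by body coverage. The rank by strongest peak counts genes and not separate peaks. Airn and Igf2r, both above Peg3, had the same strongest peak, and Usp29 had that of Peg3. Among the 27 genes 1, Nnat, had a wider peak than the 9.51 kb of the block shared by Peg3 and Usp29, at 9.88 kb. The strongest peak of Mest had 18.9 over 6.10 kb, that of Peg10 11.4 over 2.74 kb and that of Snrpn 10.7 over 2.60 kb. Nnat, Meg3, Airn and Igf2r were named after their values were seen.

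**Figure D4:**
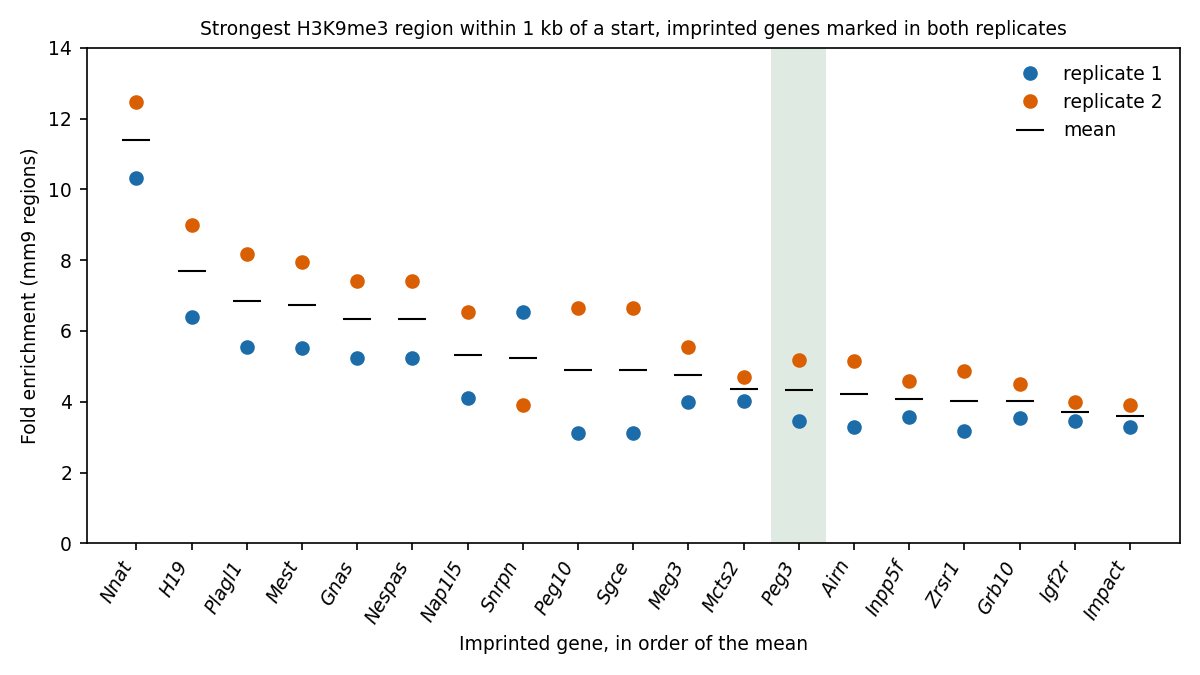
Fold enrichment of the strongest mm9 region within 1 kb of a transcript start in replicate 1 and replicate 2, with the mean as a bar, for the 19 imprinted genes marked in both, in order of the mean. Peg3 (shaded) lies at 3.46 and 5.18, and replicate 2 is higher at all genes shown except Snrpn.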

How the data were processed

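H3K9me3 was measured in 2 replicates of E14TG2a.4. The authors deposited peak lists only: 4 in mm10 (each replicate, pooled, replicated) and 3 in mm9 (each replicate and 1 for the series, whose pooling is not stated). The fold enrichment of each peak is a linear ratio deposited by the authors. The deposited mm10 lists give −log10 p and −log10 q, and the deposited mm9 lists give a linear p-value and q-value. The sources used here do not give the peak caller, the aligner, their versions or how multi-mapping reads were treated. Narrow mm10 peaks can break a block into pieces. The mm9 boundaries are all multiples of 200 bases. Over the Peg3 start the mm9 regions were 11.6 and 12 kb wide, against 9.51 kb for the replicated mm10 peak. The cause of this difference was not tested.

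The genes and lists were chosen with earlier results of these data known. Named genes were the 3 members, the domain genes and every annotated gene of the flanks, and a list of imprinted genes from which Mest, Peg10 with Sgce, and Snrpn were described. mm10 bodies and promoters came from RefSeq (GRCm38.p6), and mm9 promoters, exons and sequence from GENCODE M1 and NCBIM37. Sequences are those of RefSeq or of NCBIM37. A promoter was 1 kb either side of a transcript start and was called marked when a base covered in both replicates fell in it. Its strength was the strongest overlapping region of each replicate. Start positions in mm10 were taken from the RefSeq promoter sequences, 250 bases before to 50 after each start. No coordinates were converted between builds. No test was made, since the series has 1 group. Overlap code (Python 3.11.15, numpy 2.4.6) was tested on simulated intervals, with 0 mismatches in 1000 windows.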

Additional observations from a re-analysis of the deposited data

How the results depend on the processing

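The 8 values of the domain were recomputed under 51 alternatives, of which 38 moved by less than the SD between replicates, or for counts by at most 1.5 times. Some of the 38 could not have moved. With n = 2, either replicate alone always lies within the SD of the mean, as for the Peg3 promoter. A −log10 q of at least 2 removed no replicated peak of the span. The number of replicated peaks, 23, became 48 with the pooled list, 8 at a fold enrichment of at least 4, 15 with flanks of 25 kb, 57 with flanks of 100 kb and 14 with peaks within 1 kb merged, and ranged from 34 to 51 with either replicate left out. Marked member promoters went from 1 to 0 at a fold enrichment of at least 4 in each replicate, and to 2 with RefSeq starts, which was added after the data were seen. They stayed at 1 with either replicate left out, a setting that cannot lower this count. Body coverage of Usp29 became 2.64% with the pooled list and 1.02% once peaks under a fold enrichment of 4 were left out, that of Zim1 became 7.68% with the pooled list, and coverage of the span became 10.5% with flanks of 100 kb. Body coverage of Peg3 fell from 30.5% to 24.1% with replicate 2 left out, by more than the SD of 4.26. For mm10 peaks and coverage, leaving a replicate out meant using the other replicate's own list in place of the replicated list. With either replicate left out, the Peg3 promoter ranged from 3.46 to 5.18. Body coverage then ranged from 24.1% to 30.2% for Peg3, from 1.64% to 2.35% for Usp29 and from 4.78% to 6.49% for Zim1. Likewise span coverage ranged from 4.04% to 6.69% and the strongest peak from 11.2 to 21.6. The latter was 12.8 with peaks wholly inside the span, also added after the data were seen. The cause was not tested. No paired analysis was possible because the series has 1 group. Depth is unknown, so the lists cannot show whether uncovered sequence lacks the mark or fell below the calling threshold.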
